A study of Mus musculus with 18 samples.

Results

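The genes described here are the CDK inhibitors Cdkn1a, Cdkn1b, Cdkn2b, Cdkn2c and Cdkn2d and the pocket proteins Rb1, Rbl1 and Rbl2, measured in sorted mouse skin epithelium. They were chosen by name, as every probe set whose only symbol in the platform annotation is one of these 8. This gave 15 probe sets of the 34945 probe sets with 1 symbol, and 8 of 18193 genes. Of the 15, 14 exceeded the median signal of their array on at least 3 of the 18 arrays and were tested. The Rbl1 probe set 1454293_at was above the median on 0 of 18 arrays, with signals of 0.6 to 27.3, and was not tested.

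RNA came from K5tTA x pTRE-H2B-GFP mice, crosses of FvB and CD1 stock, in which the keratin 5 promoter drives tTA and so limits the GFP-tagged histone to keratin 5 cells. Every mouse, in all 6 groups, carried both transgenes and ate food with doxycycline at 1 g per kg, which stops synthesis of the label so that each division dilutes it. The groups were divided bulge (1 to 2 divisions), undivided bulge (0 divisions) and non-bulge cells at postnatal day (PD) 25 after doxycycline from PD22, and the same 3 fractions at PD21 after doxycycline from PD18. Bulge cells, the niche that holds hair follicle stem cells, were separated from non-bulge cells by surface CD34 and α6-integrin, and no division class is given for non-bulge cells. Each group held 3 arrays, 1 per mouse, and the mouse numbers tie the 3 fractions of each age to 3 animals. The comparisons ask whether these cell cycle inhibitors differ with division history, with niche and with age.

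CDK inhibitors stop cyclin-dependent kinases. The INK4 proteins, encoded by Cdkn2b, Cdkn2c and Cdkn2d, bind Cdk4 and Cdk6, while the CIP/KIP proteins, encoded by Cdkn1a and Cdkn1b, act on several cyclin-CDK complexes. The targets of these kinases include the pocket proteins, which in their unphosphorylated form bind E2F factors and hold down genes for DNA replication. Bulge stem cells are known for long rest between short bouts of division.

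The bulge sort was checked on 8 marker genes. Cd34, the sorting marker, had signals of 3007.3, 3411.4 and 7445.1 (lowest, median, highest) in divided bulge, 4837.9, 5469.3 and 5788.8 in undivided bulge and 1.4, 21.8 and 30.9 in non-bulge cells at PD25. In PD21 mice it had 224.7, 568.5 and 806.8 in divided bulge, against 5402.8, 6491.3 and 8912.8 in undivided bulge and 1.1, 1.1 and 25.1 in non-bulge cells. So the divided bulge arrays of PD21 carried far less of the sorting marker than the other bulge arrays, and 6 of the 8 bulge markers fell in divided against undivided bulge at PD21, while 3 of 7 markers of epidermis and upper follicle rose. At PD25, 0 of the 8 and 0 of the 7 passed in either direction. Limma called 0 of 22351 probe sets in that comparison, so these counts cannot show that the fractions match. The median difference at PD25 was 0.05 for the 8 bulge markers and 0.70 for the 7 epidermis and upper follicle markers. At PD21 these medians were -2.21 and 0.92. Summed signals of the 5 dermal fibroblast markers were 623 to 2417 on the bulge arrays and 121.6 to 451.7 on the non-bulge arrays. Col1a1 was the largest part of the sum on bulge arrays, with 432.1 to 1836.6 there and 6.1 to 220.3 on the non-bulge arrays. Only 2 of the 5 were bright enough to test. Dcn went the other way at PD21, with a median of 4.8 in undivided bulge and 49.3 in non-bulge cells. The 2 bulge fractions also differed in these markers. Of the 2 tested, 1 passed upward in divided against undivided bulge at PD21 and 0 passed at PD25. Col3a1 had 115.1 to 352.5 in divided and 4.3 to 25.7 in undivided bulge at PD21. At PD25 it had 167.7 to 470.8 and 45.6 to 125.2. Col1a1 medians in divided and undivided bulge were 494.4 and 896 at PD21, and 1467.6 and 587.4 at PD25. The 4 keratinocyte markers summed to 50550 to 113200 on all arrays, and 0 of 4 endothelial markers was bright enough to test. Whether other cell types have a part in the results below was not tested. The arrays share a 2% trimmed mean of 500, and by mean signal they fall into a high set (PD25 mouse 1 and PD21 mice 1 and 2) and a low set of 9 arrays each, which no label explains. The high set thus held 1 array of each PD25 group, and the low set held 1 array of each PD21 group. In sorted bulk samples, fewer cells of a type and less RNA per cell cannot be told apart.

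All values below are signals on a linear scale, or differences of log2(signal + 16), on which 1 is a 2-fold difference for bright probe sets. Errors of differences are standard errors of the fit (SE), with 3 mice per group, and a probe set passed at a limma adjusted p below 0.05 over 22351 tested probe sets. A second fit, called the blocked fit, takes the mouse as a block. Probe sets differ in brightness for technical reasons, so levels are compared within a probe set only.

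**Figure D1:**
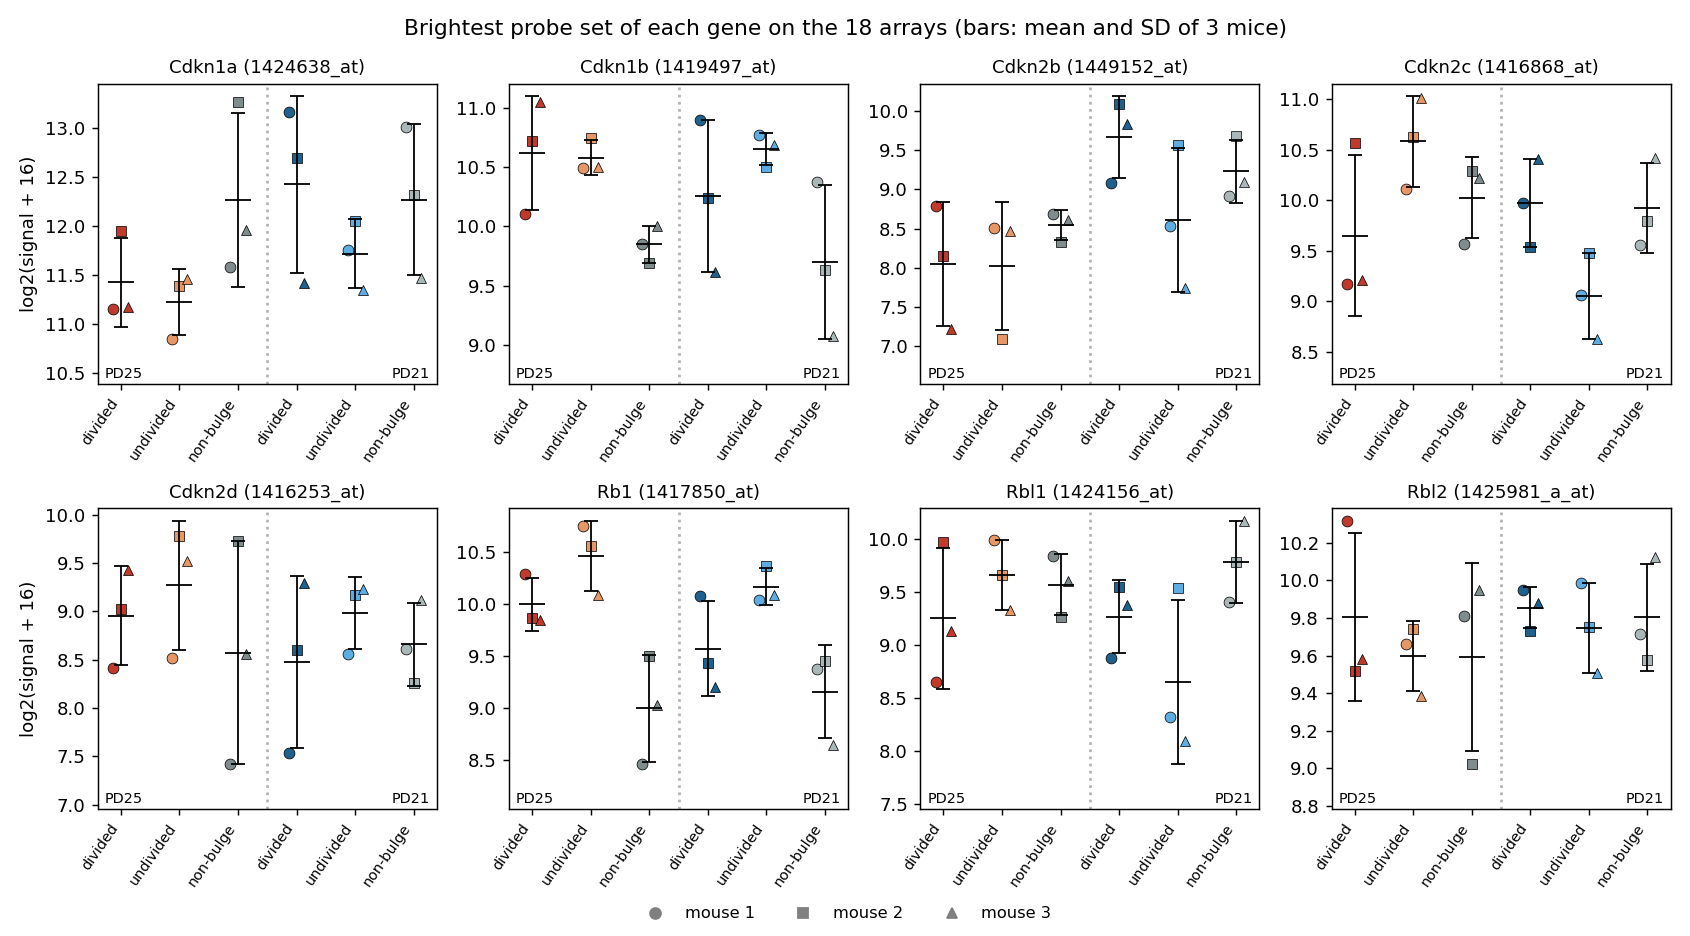
Level of each gene, as log2(signal + 16) of its brightest probe set, on the 18 arrays, with the divided bulge, undivided bulge and non-bulge groups of PD25 on the left and of PD21 on the right. Points are mice and bars are the mean and SD of 3 mice; by group mean the non-bulge cells of each age lie lowest for Rb1 and Cdkn1b, and Cdkn2c in divided against undivided bulge runs in opposite directions at the 2 ages.

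Between divided and undivided bulge cells, none of the 14 probe sets passed the test at either age. For Cdkn2c, an INK4 inhibitor, the difference ran downward in all 3 mice at PD25 and upward in all 3 mice at PD21. In mouse 2 of each age it was close to 0 (-0.06 at PD25 and 0.07 at PD21). Rb1 and Cdkn1b had lower means in divided cells at PD21 on each gene's brightest probe set, by less than the fit could separate from the spread. At PD25, limma called 0 of 22351 probe sets in all (0%), while 1040 (4.65%) had an unadjusted p below 0.05, and 8 (0.0358%) passed in the blocked fit. Among the members, 1 of 14 had an unadjusted p below 0.05 at PD25. At PD21, 0 of 14 passed, against 6.68% of all tested probe sets, and 4 of 14 had an unadjusted p below 0.05, against 17.9% of all. In the blocked fit 0 of 14 passed at each age, against 0.0358% of all at PD25 and 10.6% at PD21. The PD21 comparison rests on the divided bulge arrays with the low Cd34 signal, and the PD25 comparison does not.

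The CIP/KIP gene Cdkn1a, a target of p53, had signals (1424638_at) of 2255.1, 3928.2 and 2288.2 in divided bulge of PD25 mice 1, 2 and 3, against 1814.6, 2654.9 and 2790.9 in undivided bulge. In PD21 mice it had 9150.4, 6599.7 and 2714.5 in divided bulge, against 3438.7, 4226.5 and 2583.2 in undivided bulge. The fractions overlapped at both ages, and mouse 3 of PD21 showed almost the same level in both. The difference was 0.20 ± 0.42 at PD25 and 0.71 ± 0.42 at PD21, with a limma adjusted p of 0.424 at PD21 (0.0657 in the blocked fit). On the second probe set, 1421679_a_at, divided bulge had 664.1 to 1226.8 and undivided bulge 701.4 to 1010.2 at PD25, and at PD21 divided bulge had 668.3 to 3511.9 and undivided bulge 939.8 to 2103, with overlap at both ages.

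Cdkn1b, the other CIP/KIP gene, has 2 probe sets. On 1434045_at it had 933.6, 950 and 1235.1 in divided bulge of PD25, against 1376.8, 1256 and 1197.8 in undivided bulge. The PD21 values were 941.8, 933.9 and 981.6 in divided bulge, against 1577.2, 1569.1 and 1222.7 in undivided bulge. The PD21 fractions did not overlap, and the PD25 fractions did. The difference was -0.30 ± 0.23 at PD25 and -0.60 ± 0.23 at PD21 (limma adjusted p = 0.145), and its mean over both ages was -0.45 ± 0.16 (adjusted p = 0.161). The 95% interval of that mean, not adjusted for the number of probe sets tested, ran from -0.788 to -0.109. On the brighter probe set 1419497_at the differences were 0.04 ± 0.32 at PD25 and -0.40 ± 0.32 at PD21, so the probe sets did not show the same pattern at PD25.

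Among the INK4 genes, Cdkn2c (1416868_at) had 560.3, 1503.5 and 576.1 in divided bulge of PD25 mice 1, 2 and 3, against 1087.5, 1562.9 and 2041.9 in undivided bulge. PD21 mice had 987.7, 729 and 1336.6 in divided bulge, against 519.8, 695.4 and 378 in undivided bulge. At PD21 every divided sample lay above every undivided one, and at PD25 mouse 2 had nearly equal levels while the other mice were lower in divided cells. Within mice the differences of divided minus undivided cells were -0.94, -0.06 and -1.80 at PD25 and 0.91, 0.07 and 1.78 at PD21. The fitted difference was -0.93 ± 0.36 at PD25 (limma adjusted p = 0.913) and 0.92 ± 0.36 at PD21 (adjusted p = 0.152), so the mean over both ages was -0.01 ± 0.26.

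The change of the Cdkn2c division effect between the ages, PD25 minus PD21, was -1.85 ± 0.51 with a limma adjusted p of 0.0864, which did not pass. It passed in the blocked fit (adjusted p = 0.028). Of all tested probe sets, 0.904% passed this test without the block and 3.28% with it, and of the 14 member probe sets 0 passed without it and 1 with it. An unadjusted p below 0.05 was found for 1 of 14, against 11.3% of all. Leaving out each of the 12 arrays in turn gave changes of -2.31 to -1.61 with adjusted p-values of 0.0139 to 0.228, and 1 of these 12 fits passed, the one without divided bulge of PD25 mouse 2. In the same comparison 5 of 8 bulge markers passed upward and 1 of 7 epidermis and upper follicle markers passed downward, and their part in the Cdkn2c value was not tested. Within the arrays of high mean signal the Cdkn2c change was -1.42, with mouse 1 as the only PD25 mouse. Within those of low mean signal it was -2.71, with mouse 3 as the only PD21 mouse. A direction shared by all mice of an age and opposite at the other age was seen for 1 of 14 member probe sets (Cdkn2c), against 5.02% of all tested probe sets.

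Cdkn2b, which responds to TGF-beta signalling, had 424.6, 267.3 and 133.1 in divided bulge of PD25, against 348.9, 120.1 and 338.9 in undivided bulge. At PD21 it had 526.6, 1070.9 and 899.3 in divided bulge, against 355.7, 740.4 and 197.5 in undivided bulge. All 3 PD21 mice were higher in divided cells, with overlapping groups, and the PD25 mice went both ways. The difference was 0.03 ± 0.48 at PD25 and 1.06 ± 0.48 at PD21 (limma adjusted p = 0.237). Without undivided bulge of PD21 mouse 3 the PD21 difference was 0.62 (adjusted p = 0.596). Cdkn2d, the remaining INK4 gene, had signals of 325.9 to 673.6 in divided and 349.1 to 860.7 in undivided bulge at PD25, and 169.2 to 611.8 in divided and 360.2 to 584.7 in undivided bulge at PD21. Its groups overlapped at both ages, with a difference of -0.51 ± 0.51 at PD21.

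Of the pocket proteins, Rb1 (1417850_at), the retinoblastoma tumour suppressor, had 1231.9, 912 and 899.8 in divided bulge of PD25, against 1697.4, 1482.8 and 1069.1 in undivided bulge. In PD21 mice it had 1063.6, 673.6 and 571.9 in divided bulge, against 1033.3, 1303 and 1069.6 in undivided bulge. Divided cells had less Rb1 signal in all 3 mice at PD25 and in 2 of 3 mice at PD21, and mouse 1 of PD21 had nearly equal levels. The difference was -0.46 ± 0.31 at PD25 and -0.59 ± 0.31 at PD21 (limma adjusted p = 0.335), and its mean over the ages was -0.53 ± 0.22 (adjusted p = 0.249). The 95% interval of the mean, likewise not adjusted, was -0.985 to -0.0731. Such intervals are given only for the 2 of 14 probe sets with an unadjusted p below 0.05 for this mean. The dimmer Rb1 probe set 1444400_at had 97.1, 194.2 and 184.8 in divided and 453.6, 196 and 240 in undivided bulge at PD25, with no overlap, and overlapping values at PD21.

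Rbl1, a pocket protein whose gene is itself an E2F target, had 387.2, 986.3 and 546.9 on 1424156_at in divided bulge of PD25, against 1002.5, 792.9 and 629.4 in undivided bulge. The PD21 values were 455.4, 733.9 and 647.5 in divided bulge, against 304.9, 726.6 and 257.2 in undivided bulge. The groups overlapped at both ages, with differences of -0.41 ± 0.38 at PD25 and 0.62 ± 0.38 at PD21. On 1425166_at divided bulge had 183 to 829.2 and undivided bulge 263.9 to 429.6 at PD25, and divided bulge had 206.7 to 386.5 and undivided bulge 99.1 to 523.2 at PD21. On 1432604_at divided bulge had 98.7 to 338.3 and undivided bulge 72.3 to 498.5 at PD25, and 162.9 to 327.7 in divided and 46.3 to 183.3 in undivided bulge at PD21, a PD21 difference of 1.27 ± 0.59 (limma adjusted p = 0.252). The fractions overlapped on both. The change of the Rbl1 division effect between the ages was -1.02 ± 0.53 on 1424156_at and -1.58 ± 0.84 on 1432604_at, and neither passed in limma (unadjusted p = 0.066 on 1424156_at). Rbl2, the pocket protein most abundant in resting cells, had 716.1 to 1260.7 in divided and 653.5 to 839 in undivided bulge at PD25 on 1425981_a_at. PD21 mice had 835 to 972.1 in divided and 711 to 996.8 in undivided bulge. Its difference was 0.21 ± 0.29 at PD25 and 0.11 ± 0.29 at PD21, so no difference beyond the spread was seen. On its second probe set, 1418146_a_at, divided bulge had 279.7 to 533.3 and undivided bulge 181.4 to 717.8 at PD25, and divided bulge had 344.8 to 569.5 and undivided bulge 294.3 to 824.1 at PD21, again with overlap.

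The proximal promoters of Cdkn2c and Rbl1 are shown because their brightest probe sets correlated with each other over the 18 arrays (r = 0.642) and with the cell cycle genes described below, and that of Cdkn1b because its brightest probe set had an r of -0.06 with those genes. RefSeq promoters (mouse build GRCm38.p6) were available for 7 of the 8 genes. The 250 bases before the start of each gene, 5′ to 3′ on the gene's strand, have capitals where a match lies to an E2F motif (TTTCCCGC, TTTCGCGC, TTTGCCGC or TTTGGCGC) or to a GC box (GGGCGG), each on either strand. They are from chr2:157204535-157204784 (minus strand) for Rbl1, chr4:109666757-109667006 (minus strand) for the upstream start of Cdkn2c and chr6:134920151-134920400 (plus strand) for Cdkn1b.
Rbl1: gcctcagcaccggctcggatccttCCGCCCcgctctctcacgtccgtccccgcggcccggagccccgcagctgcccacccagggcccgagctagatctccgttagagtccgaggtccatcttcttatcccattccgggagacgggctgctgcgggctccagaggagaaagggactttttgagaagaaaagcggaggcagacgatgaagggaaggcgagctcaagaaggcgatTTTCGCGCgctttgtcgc
Cdkn2c: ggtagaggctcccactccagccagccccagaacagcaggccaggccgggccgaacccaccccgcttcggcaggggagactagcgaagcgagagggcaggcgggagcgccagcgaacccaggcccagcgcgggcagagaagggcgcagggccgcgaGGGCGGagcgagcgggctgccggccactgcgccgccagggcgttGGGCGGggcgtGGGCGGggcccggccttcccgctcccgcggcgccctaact
Cdkn1b: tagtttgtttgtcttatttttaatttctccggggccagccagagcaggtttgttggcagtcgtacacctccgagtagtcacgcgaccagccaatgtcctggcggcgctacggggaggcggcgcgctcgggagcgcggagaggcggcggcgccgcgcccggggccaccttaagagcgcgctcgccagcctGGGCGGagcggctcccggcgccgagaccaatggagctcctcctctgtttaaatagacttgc

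Rbl1 held 1 E2F match, beginning 18 bases before the start, and 1 GC box at 226, and these do not overlap. Cdkn2c held 0 E2F matches and 3 GC boxes, at 95, 51 and 40 bases. Cdkn1b held 0 E2F matches and 1 GC box at 61. Of 32851 mouse promoters of this length, 1.86% held the E2F motif and 32.7% the GC box. The CHR element TTTGAA (16% of promoters) was found once each in Cdkn2b and Rbl2, and a FOXO motif TGTTTAC (3.17%) in 0 of the 7 genes. A match to these letters is a description and does not show that a factor binds.

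Over both ages together, 0 of 14 probe sets passed for the mean division effect, against 3.93% of all, and 2 of 14 (Rb1 1417850_at and Cdkn1b 1434045_at) had an unadjusted p below 0.05, against 13.9% of all. In the blocked fit 0 of 14 passed, against 6.72% of all. The groups did not overlap for 1 of 14 member probe sets at PD25, against 9.08% of all, and for 2 of 14 at PD21, against 21.9% of all. The median difference of the 14 was -0.14 at PD25, beside 0.02 over all tested probe sets, and 0.18 at PD21, beside 0.06 over all.

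**Figure D2:**
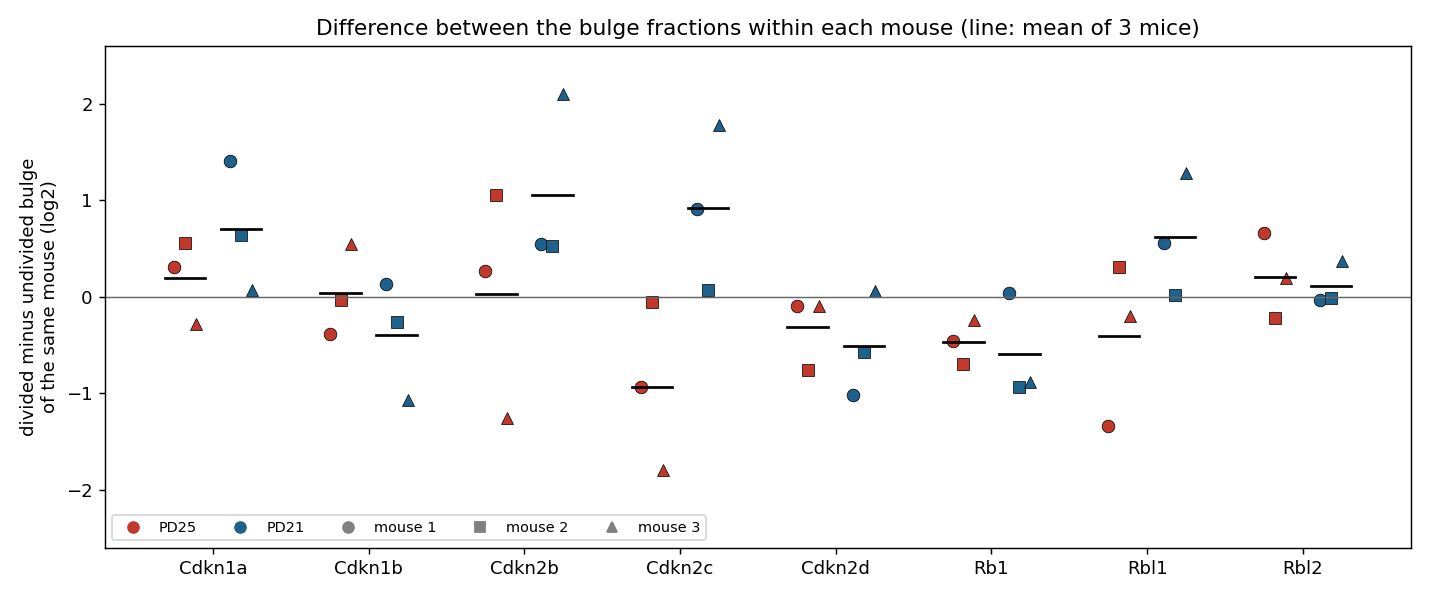
Difference between divided and undivided bulge cells of the same mouse, in log2(signal + 16), for the brightest probe set of each gene. Points are mice of PD25 (left of each pair) and PD21 (right) and the line is their mean; Cdkn2c lies below 0 in all PD25 mice and above 0 in all PD21 mice.

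Against non-bulge cells, Rb1 passed upward in undivided bulge cells at both ages on 1 of its 2 probe sets. Cdkn1b passed upward there at PD25, also on 1 of 2. Both Cdkn1b probe sets had positive differences in all 3 mice of each age. The other Rb1 probe set, 1444400_at, differed by 1.23 at PD25, upward in all 3 mice, and by -0.62 at PD21. At PD25, 2 of 14 member probe sets passed, Rb1 1417850_at and Cdkn1b 1434045_at, both higher, against 8.97% of all tested probe sets. At PD21, 1 of 14 passed, Rb1 1417850_at, against 9.4% of all. These shares of probe sets that passed are near the background. In divided bulge cells 0 of 14 passed at PD25, against 7.04% of all, and 0 of 14 at PD21, against 0.134% of all. At an unadjusted p below 0.05 the divided bulge counts were 3 of 14 at PD25, against 16.7% of all, and 0 of 14 at PD21, against 4.13% of all. For undivided bulge they were 4 of 14 at PD25, against 18.4% of all, and 6 of 14 at PD21, against 20.9% of all. In the blocked fit 3 of 14 passed for undivided bulge at PD25 (12.4% of all) and 3 of 14 at PD21 (14.4% of all). For divided bulge the blocked fit passed 2 of 14 at PD25 (10.2% of all) and 0 of 14 at PD21 (0.322% of all).

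Rb1 (1417850_at) had 1697.4, 1482.8 and 1069.1 in undivided bulge of PD25, against 336.2, 705.1 and 506.7 in non-bulge cells. In PD21 mice it had 1033.3, 1303 and 1069.6 in undivided bulge, against 645.3, 685.1 and 384.9 in non-bulge cells. Every undivided bulge sample lay above every non-bulge sample of its age. Over non-bulge cells, Rb1 rose in undivided bulge by 1.46 ± 0.31 at PD25 (limma adjusted p = 0.00241) and by 1.00 ± 0.31 at PD21 (adjusted p = 0.042). The PD25 call held without each array in turn, with adjusted p-values of 0.00129 to 0.0263, and was not made within the arrays of low mean signal (difference 1.05, adjusted p = 0.121). The PD21 call was lost in 5 of 6 such fits and was made without the non-bulge array of mouse 2 (adjusted p = 0.0447, against up to 0.205). Within the array sets the PD21 difference was 0.79 in the high set (limma adjusted p = 0.232) and 1.44 in the low set, which is PD21 mouse 3 alone. In divided bulge the difference from non-bulge cells was 1.00 ± 0.31 at PD25 (adjusted p = 0.0532, 0.034 in the blocked fit, and 0.0242 to 0.286 without an array, passing without non-bulge mouse 2) and 0.41 ± 0.31 at PD21. The dimmer probe set 1444400_at did not pass and gave 1.23 ± 0.61 at PD25 and -0.62 ± 0.61 at PD21 for undivided bulge. Within PD21 mice 1, 2 and 3 its differences were -2.05, 0.05 and 0.14. The negative PD21 mean thus came from mouse 1, whose undivided bulge signal was 49.3.

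Cdkn1b on 1434045_at had 1376.8, 1256 and 1197.8 in undivided bulge of PD25, against 590.7, 750.9 and 897.4 in non-bulge cells, with no overlap. It was higher in undivided bulge by 0.78 ± 0.23 (limma adjusted p = 0.0336), a call that held in 1 of 6 fits without an array, the one without non-bulge mouse 3 (adjusted p = 0.0293, against up to 0.182). It was 1.20 within the high array set, which is PD25 mouse 1 alone, and 0.57 within the low one (limma adjusted p = 0.479). At PD21 its difference was 0.51 ± 0.23 (adjusted p = 0.201). The other probe set, 1419497_at, had 1419.7, 1699.7 and 1428.4 in undivided bulge of PD25, against 906.7, 810.6 and 1010.3 in non-bulge cells. At PD21 it had 1724.8, 1431.1 and 1630.3 in undivided bulge, against 1309.6, 779.1 and 524.1 in non-bulge cells. The groups did not overlap at either age. The differences were 0.73 ± 0.32 at PD25 (adjusted p = 0.203) and 0.95 ± 0.32 at PD21 (adjusted p = 0.0618), and the PD21 difference passed in the blocked fit (adjusted p = 0.0152). Without an array it was 0.65 to 1.29, passing in 1 of 6 fits, the one without non-bulge mouse 1.

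Cdkn1a had negative differences at PD25. On 1424638_at it had 1814.6, 2654.9 and 2790.9 in undivided bulge of PD25, against 3036.7, 9836.2 and 3945.7 in non-bulge cells, with no overlap. The difference of undivided bulge from non-bulge cells was -1.04 ± 0.42 at PD25, with a limma adjusted p of 0.158, and passed in the blocked fit (adjusted p = 0.00465). For divided bulge it was -0.84 ± 0.42, with an adjusted p of 0.329, and passed in the blocked fit (adjusted p = 0.0262). Without the non-bulge array of PD25 mouse 2, whose signal was the highest of the 18 arrays, these differences were -0.54 for undivided and -0.34 for divided bulge. Over all fits without an array, adjusted p-values were 0.0769 to 0.604 for undivided and 0.172 to 0.841 for divided bulge. Each of the 3 PD25 mice was lower on 1424638_at in each bulge fraction than in its own non-bulge cells. At PD21, undivided bulge had 3438.7, 4226.5 and 2583.2, against 8238, 5067.1 and 2823.1 in non-bulge cells, with overlap and a difference of -0.55 ± 0.42. The second probe set, 1421679_a_at, did not pass and overlapped throughout. Its differences from non-bulge cells were -0.60 ± 0.58 for divided and -0.82 ± 0.58 for undivided bulge at PD25, where divided bulge of mouse 3 was higher by 0.38. At PD21 they were 0.82 ± 0.58 for divided bulge, higher in all 3 mice, and 0.63 ± 0.58 for undivided bulge, so for undivided bulge at PD21 the 2 Cdkn1a probe sets went opposite ways.

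At PD21, Rbl1 and Cdkn2c had negative differences between undivided bulge and non-bulge cells. Rbl1 on 1424156_at had 304.9, 726.6 and 257.2 in undivided bulge of PD21, against 662, 863.2 and 1140.2 in non-bulge cells, a difference of -1.13 ± 0.38 (limma adjusted p = 0.0592, and 0.0351 in the blocked fit). Without an array it was -1.58 to -0.86, passing in 1 of 6 fits, the one without undivided bulge of mouse 2 (adjusted p = 0.00854). Its other tested probe sets gave -0.99 ± 0.56 and -1.43 ± 0.59. Cdkn2c had 519.8, 695.4 and 378 in undivided bulge of PD21, against 738.8, 873.3 and 1354.7 in non-bulge cells, with no overlap and a difference of -0.87 ± 0.36 (adjusted p = 0.153). At PD25 Cdkn2c had 1087.5, 1562.9 and 2041.9 in undivided bulge, against 742.6, 1237.5 and 1172.6 in non-bulge cells, and a difference of 0.56 ± 0.36 (adjusted p = 0.488). Cdkn2c ran one way in all 3 mice of PD25 and the other way in all 3 of PD21 here too, as 1 of 14 member probe sets, against 2.03% of all probe sets. For divided bulge against non-bulge cells 0 of 14 did so, against 4.58% of all. Cdkn2b, Cdkn2d and Rbl2 did not pass in any comparison with non-bulge cells.

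The groups did not overlap for 4 of 14 member probe sets in undivided bulge against non-bulge cells at PD25 (23% of all) and for 5 of 14 at PD21 (24.7% of all). In divided bulge against non-bulge cells the counts were 3 of 14 at PD25 (20.2% of all) and 0 of 14 at PD21 (8.8% of all).

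**Figure D3:**
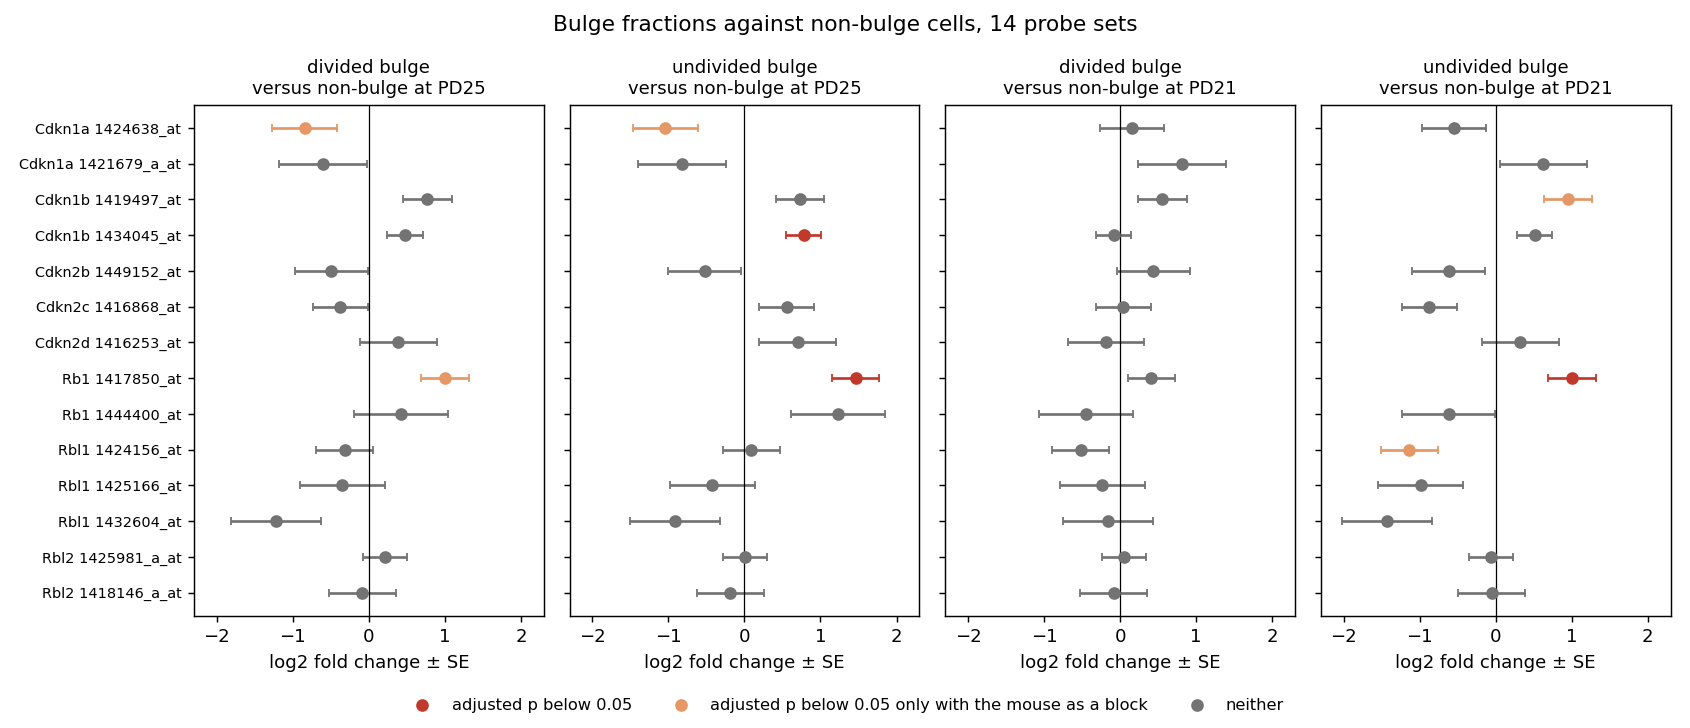
Log2 fold change with its SE of each bulge fraction over non-bulge cells at each age, for the 14 tested probe sets. Colour marks a limma adjusted p below 0.05 in the fit without the block, or in the blocked fit alone; Rb1 1417850_at stands at 1.46 in undivided bulge of PD25 and 1.00 at PD21.

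Between the ages, Cdkn2b was the member that passed. In divided bulge it fell by 1.62 ± 0.48 at PD25 relative to PD21 (limma adjusted p = 0.0442), and all 3 PD25 samples, 133.1 to 424.6, lay below all PD21 samples, 526.6 to 1070.9. This was 1 of 14 member probe sets, against 6.16% of all, and 1 of 14 in the blocked fit, against 6.21%. The call held in 2 of 6 fits without an array, those without mouse 1 of either age, and adjusted p-values without an array ranged from 0.0257 to 0.256. Within the arrays of high mean signal the difference was -0.80, with mouse 1 as the only PD25 mouse. Within those of low mean signal it was -2.15, with mouse 3 as the only PD21 mouse. Cdkn1a had -1.001 ± 0.42 in the same comparison (adjusted p = 0.214). It was -1.51 without divided bulge of PD21 mouse 3 (adjusted p = 0.0309) and -0.63 without that of PD21 mouse 1 (adjusted p = 0.668). This comparison also carries the bulge markers, of which 7 of 8 rose at PD25, and the epidermis and upper follicle markers, of which 3 of 7 fell, and the part of that in the Cdkn2b difference was not tested.

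In undivided bulge, 0 of 14 passed between the ages, against 0.0761% of all (0 of 14 in the blocked fit, against 0.0895%), and 2 of 14 had an unadjusted p below 0.05, against 7.13% of all. Cdkn2c had the larger of these, with 1087.5 to 2041.9 at PD25 against 378 to 695.4 at PD21 and no overlap. Its difference was 1.53 ± 0.36 (limma unadjusted p = 0.000313, adjusted p = 0.115). Rbl1 on 1424156_at followed with 1.01 ± 0.38 (adjusted p = 0.476). In non-bulge cells 0 of 14 passed, against 0.0537% of all, and 0 of 14 had an unadjusted p below 0.05, against 3.91% of all. Groups did not overlap between the ages for 2 of 14 probe sets in undivided bulge (11.7% of all), 1 of 14 in divided bulge (19.7% of all) and 2 of 14 in non-bulge cells (8.25% of all).

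Cdkn2c and Rbl1 correlated with cell division genes across the arrays. A list of 20 cell cycle genes, of which Mki67, Top2a, Mcm5 and Rrm2 are examples, had a mean log2 value of 10.08, 11.03 and 10.09 in divided bulge of PD25 mice 1, 2 and 3 and 11.11, 10.99 and 11.04 in undivided bulge. At PD21 it was 10.40, 10.50 and 10.62 in divided bulge and 9.72, 10.44 and 9.74 in undivided bulge. Mice 1 and 3 of each age, in which Cdkn2c differed between the fractions, also differed in this list in the same direction, and mouse 2 of each age was close to equal in both. Over the 18 arrays, which share mice and so are not independent points, Pearson's r with the list mean was 0.845 for Cdkn2c and 0.733, 0.631 and 0.395 for the Rbl1 probe sets 1424156_at, 1425166_at and 1432604_at. For Rb1 it was 0.124 on 1417850_at and 0.459 on 1444400_at, so the dimmer Rb1 probe set lay within the Rbl1 range. It was -0.06 and -0.13 for Cdkn1b, -0.04 and -0.11 for Cdkn1a, -0.321 and -0.214 for Rbl2, 0.191 for Cdkn2d and -0.02 for Cdkn2b. Between Rb1 1417850_at and Cdkn1b, r was 0.702 on 1419497_at and 0.69 on 1434045_at. For the dimmer Rb1 probe set 1444400_at these were 0.07 and 0.345.

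**Figure D4:**
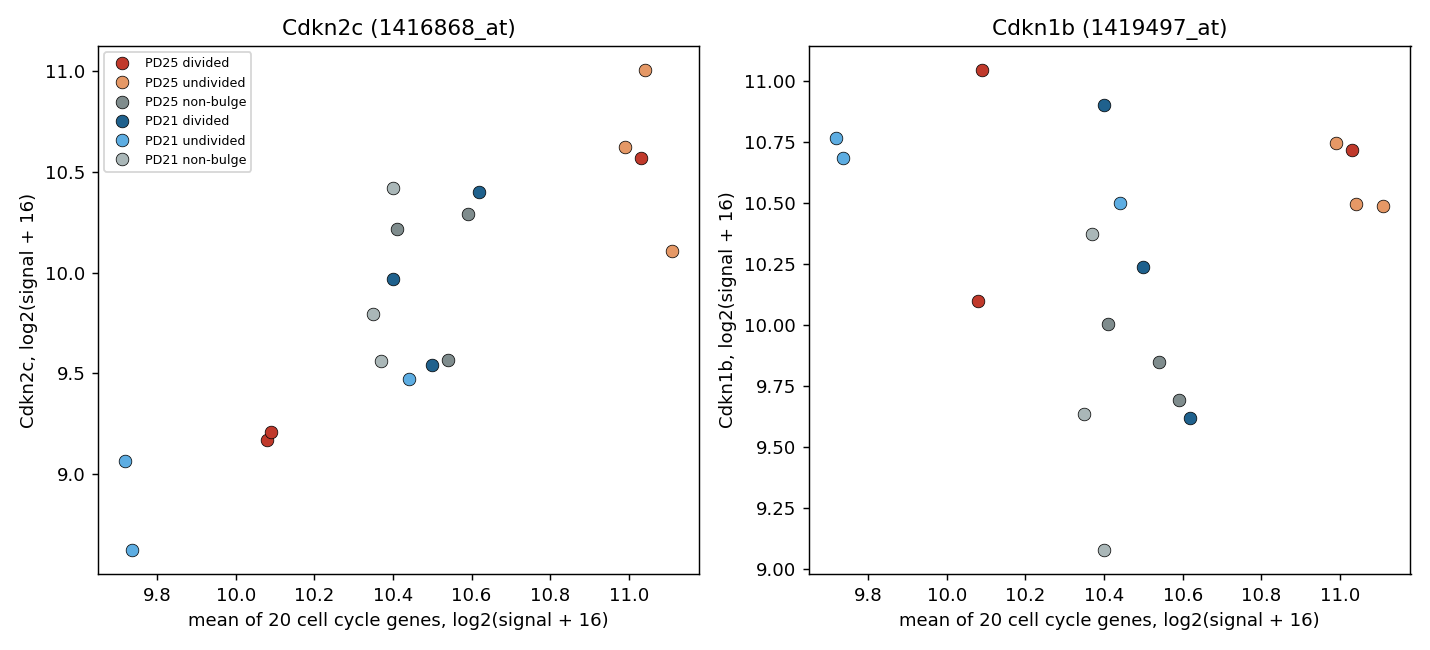
Levels of Cdkn2c (left panel) and Cdkn1b (right panel) against the mean of the 20 cell cycle genes, all in log2(signal + 16), with 1 point per array coloured by group. Cdkn2c is higher on arrays with a higher list mean (r = 0.845 over 18 arrays), and Cdkn1b shows no such slope (r = -0.06).

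Of the 20 cell cycle genes, 3 rose and 0 fell in divided against undivided bulge at PD21, against 6.68% of all tested probe sets in either direction. They were Ccnb2 by 1.36, Cenpe by 1.59 and Cdc20 by 1.41 (limma adjusted p of 0.0336, 0.0114 and 0.0498). At PD25 0 passed, against 0% of all. Mki67, a marker of cycling cells, differed by -0.23 ± 0.32 at PD25 and 0.85 ± 0.32 at PD21 (adjusted p = 0.118, and 0.00308 in the blocked fit). Mcm5, a replication helicase subunit, differed by -1.004 ± 0.34 at PD25 and 0.58 ± 0.34 at PD21, neither passing. Top2a, a topoisomerase, differed by -0.69 ± 0.30 at PD25 and 0.71 ± 0.30 at PD21, and Rrm2, a ribonucleotide reductase subunit, by -0.76 ± 0.31 and 0.29 ± 0.31, none passing. For the change between the ages 0 of the 20 passed, against 0.904% of all, and 7 fell in the blocked fit, against 3.28% of all in either direction. The median change of the 20 was -1.15, beside -0.04 over all tested probe sets.

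The partners and regulators of these inhibitors form a list of 34 genes, of which 31 were tested. In divided against undivided bulge at PD25, 0 passed, against 0% of all tested probe sets. At PD21, 2 rose and 1 fell, against 6.68% of all in either direction. Cdkn3, a CDK phosphatase, rose by 1.73 ± 0.53 (limma adjusted p = 0.0468), E2f2, an activating E2F, rose by 1.11 ± 0.29 (adjusted p = 0.0171), and the D-type cyclin Ccnd3 fell by 1.86 ± 0.30 (adjusted p = 0.000276). Against non-bulge cells in undivided bulge, Ccnd3 rose at PD25 by 1.15 ± 0.30 (adjusted p = 0.0146) as the 1 gene of 31 that passed, against 8.97% of all. In the blocked fit 3 were higher at PD25 (Ccnd3, Ccna2 and Cks1b) and 1 lower (Ccnd2), against 12.4% of all. At PD21, 1 was higher and 3 were lower, against 9.4% of all. At PD21 Ccnd3 rose by 1.55 ± 0.30 (adjusted p = 0.00103), while Cdkn3 changed by -1.64 ± 0.53 (adjusted p = 0.0498), E2f2 by -1.03 ± 0.29 (adjusted p = 0.0231) and E2f8, a repressive E2F, by -1.48 ± 0.39 (adjusted p = 0.0145). In divided bulge against non-bulge cells 0 of the 31 passed, against 7.04% of all at PD25 and 0.134% at PD21. Between the ages 0 of the 31 passed, against 6.16% of all in divided bulge, 0.0761% in undivided bulge and 0.0537% in non-bulge cells. In the blocked fit the counts at PD21 were 4 higher and 1 lower for the division effect, against 10.6% of all. For undivided bulge against non-bulge cells they were 1 higher and 7 lower, against 14.4% of all.

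The tested probe sets of other genes were ranked by Pearson's r over the 18 arrays to the brightest probe set of each member, and the top 3 are given. For Cdkn2c they were the cyclin gene Ccnb2 (0.912), which is also in the cell cycle list, Trip13 (0.875) and Zwilch (0.873). For Rbl1 they were Cbx5 (0.862), Dbf4 (0.844) and Myb (0.837). For Rb1 they were Pdlim5 (0.903), Pja1 (0.884) and Rflnb (0.878), and for Cdkn1b Camsap3 (0.864), Hr (0.842) and Ddr1 (0.837). For Cdkn1a they were Plet1 (0.864), Hcar2 (0.86) and Wwc1 (0.834). For Cdkn2b they were Fndc9 (0.818), Acer1 (0.801) and Cdadc1 (0.794), for Cdkn2d Zfp148 (0.91), Vps33a (0.882) and Utp23 (0.854), and for Rbl2 Asph (0.843), Lpp (0.808) and Bcl11a (0.805). These are the highest of 22351 probe sets, so high values are reached by selection. Between probe sets of 1 gene, r was 0.816 for Cdkn1a, 0.531 for Cdkn1b, 0.32 for Rb1, 0.573 to 0.846 for Rbl1 and 0.118 for Rbl2.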

How the data were processed

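Each of the 18 arrays (Affymetrix MOE 430 2.0) held RNA of sorted skin cells of 1 mouse, of which 5 ng was amplified with Ovation chemistry before labelling, per the labels' protocols. The deposited values are intensity signals per probe set on a linear scale, made with GCOS per the submitters' processing notes. Each array has the same 2% trimmed mean of 500, so the authors had scaled them, and no other normalisation was applied. Array medians were 60.3 to 116.6. The number of arrays limits the precision. Ratios of the Gapdh 3' to 5' probe sets were 3.1 to 11.6, the highest on the PD25 divided bulge array of mouse 1. In PD21 mouse 3 the ratio was 3.21 in undivided bulge, 9.67 in divided bulge and 8.77 in non-bulge cells. In divided and undivided bulge it was 9.05 and 8.58 for PD21 mouse 1, and 5.62 and 6.19 for PD21 mouse 2. The part of these ratios in the differences between fractions was not tested.

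The table held 45101 probe sets: 64 controls, 34945 with 1 platform symbol, 932 with several and 9160 with none listed, and those with several or none were left out. The scale was log2(signal + 16), which understates changes of dim genes. Group means of all 18 arrays were fitted with limma 3.58.1 in R 4.3.3 (lmFit, eBayes with trend) over 22351 probe sets above the array median on 3 or more arrays, with Benjamini-Hochberg adjustment within each comparison. The script was tested on simulated data. Mouse numbers in the titles give 3 fractions of the same mice, whose deviations correlated by 0.0688 to 0.445. The mouse was therefore a block in an alternative fit, fixed within an age and random between ages.

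All probe sets of the 8 genes are named, with a list of 34 partners, 20 cell cycle genes and, for each gene, the 3 most alike. The genes and lists were chosen with earlier results of these data known. Alternatives covered the pseudocount, normalisation, filter, spread and each array in turn. The array sets were added after the data were seen, as their mean signals (810.8 to 868.9 and 666.7 to 730.6) left a gap.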

Additional observations from a re-analysis of the deposited data

Results flagged for a closer look

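The difference in Cdkn2c between divided and undivided bulge had opposite signs at the 2 ages and passed at neither (limma adjusted p of 0.913 at PD25 and 0.152 at PD21). Divided bulge cells had less than undivided cells of the same mouse in all 3 PD25 mice and more in all 3 PD21 mice. In mouse 2 of each age the difference was close to 0 (-0.06 at PD25 and 0.07 at PD21). The difference between the effects was -1.85 with a limma adjusted p of 0.0864, which did not pass (0.028 with the mouse as a block). The bulge effect on Cdkn2c ran the other way. Undivided bulge cells had more than non-bulge cells in all 3 PD25 mice and less in all 3 PD21 mice, with a difference between the effects of 1.43 ± 0.51 (limma unadjusted p = 0.0104), which did not pass after adjustment. Both patterns contain the same undivided bulge arrays and are not independent. In the division contrast 5 of 8 bulge markers also passed upward between the ages and 1 of 7 epidermis and upper follicle markers passed downward, and the PD21 side of that contrast rests on the divided bulge arrays with the low Cd34 signal. Their part in the Cdkn2c value was not tested. Such opposite runs were seen for 5.02% of all tested probe sets in the first contrast and 2.03% in the second.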

How the results depend on the processing

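Of 26 results for single probe sets, 2 changed direction. Rbl1 1432604_at in divided against undivided bulge at PD21 was -0.16 within the arrays of low mean signal, and Cdkn1a 1424638_at in divided bulge, PD25 against PD21, was 0.14 there. Both values rest on mouse 3 as the only PD21 mouse of that set. The counts of member probe sets that passed stayed at 0 under every alternative for the division effect at PD25, its mean over the ages, divided bulge against non-bulge cells at PD21 and the ages in undivided bulge and non-bulge cells. With the mouse as a block (replicate block), the count was 1 for the change of the division effect, 3 for undivided bulge against non-bulge cells at PD21 and 2 for divided bulge against non-bulge cells at PD25, against 0, 1 and 0 without it. Without each array in turn it was 0 to 1 for the change of the division effect, for undivided bulge at PD21, for divided bulge at PD25 and for the ages in divided bulge, and 1 to 2 for undivided bulge at PD25. For undivided bulge at PD21 it was 0 without the filter, with equal medians, without the trend and within the high array set, and 3 with the array set as a term. For undivided bulge at PD25, where 2 passed, it was 1 without the filter, with equal medians, with only the compared groups and with 1 probe set per gene, and 0 within the low set. The change of the division effect had 1 with the array set as a term, and divided bulge at PD25 had 1 with that term and with 1 probe set per gene. For the ages in divided bulge it was 0 with pseudocount 1, quantile scaling, equal medians and no trend. In these lists, counts are left out where an array set held 1 array of a compared group. The division effect at PD21 had 1 in the high set. Comparisons involving the array sets were chosen after seeing the data. The cause was not tested. The number of arrays, 3 per group, limits the precision, and the Rbl1 probe set 1454293_at, above the array median on 0 of 18 arrays, was left out by the filter on dim probe sets.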
